A study of Saccharomyces cerevisiae SK1 with 28 samples.

Results

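GDP-mannose is the activated sugar from which yeast builds its mannose-containing glycans, and protein mannosylation is one of the modifications that proteins receive on entering the secretory pathway. The genes described are SEC53 and PSA1 for GDP-mannose synthesis, PMT1, PMT2, PMT3 and PMT4 for protein O-mannosylation, and MCD4 for the glycosylphosphatidylinositol (GPI) anchor. They were chosen by gene symbol, with earlier results of these data known. They are 7 of 6021 protein-coding genes in the R64 reference annotation. A listed promoter summit was found for 6 of the 7 in at least 1 of 14 ChIP-seq tables, and PMT4 was not listed in any. Over all protein-coding genes, 551 were listed in at least 1 table.

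The yeast was wild-type SK1, a laboratory strain that sporulates efficiently. Growth was at 30 °C and fixation took 15 min in 1% formaldehyde. All groups shared this strain and genotype. Vegetative cells grew exponentially in the rich medium YPD and were harvested at an OD600 of 0.6, and a second vegetative group carried the label DTT, a reducing agent that breaks disulfide bonds and disturbs protein folding in the endoplasmic reticulum (ER). Premeiotic starvation was sampled at 6 h and 21 h in BYTA, the medium used before sporulation, and meiotic cells after transfer to sporulation medium for 5.5 h, 6 h 45 min or 8 h. Each of the 7 states had 2 ChIP and 2 input libraries. Neither the immunoprecipitated protein nor the amount and length of the DTT treatment was stated in the labels.

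Each table came from 1 ChIP library and paired peak summits with promoter windows of 600 bp that end at the gene start. The lists held between 4 and 296 summits, and the read depth behind them is unknown. The labels do not state how the authors selected the listed summits. Numbers in the peak names reached 1834 and 1979 in the vegetative lists of 18 and 13 summits. With DTT they reached 1897 and 1950, in lists of 296 and 245 summits. Over all lists the highest number ran from 1119 (21 h BYTA replicate 2) to 3099 (6 h 45 min sporulation replicate 1). The length of a list is thus not the number of peaks numbered in that library. A gene without a row is therefore described as not listed, which is not a measurement of no binding. Genes listed in both libraries of a state are named called genes. In the main results the deposited score was compared only within a list, to rank its summits, with rank 1 the highest. Alternative runs with a score cutoff applied it to all lists. Labels do not say that replicates came from separate cultures. With 2 libraries against 2, a two-sided exact permutation test has a smallest possible p of 0.33, so no difference between states was tested.

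Sec53 is phosphomannomutase, which makes mannose-1-phosphate, and Psa1 is the pyrophosphorylase that joins it to GTP to give GDP-mannose. Dpm1 passes the mannose to the lipid dolichol phosphate, and the Pmt proteins in the ER membrane transfer it from there to serine and threonine residues of secretory proteins. Pmt1 acts as a complex with Pmt2 and also mannosylates ER proteins that fail to fold, whereas Pmt4 forms a complex with itself. Mcd4 adds phosphoethanolamine to the first mannose of the GPI precursor, the glycolipid that anchors many cell wall and plasma membrane proteins.

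DTT-treated cells listed the most of these genes. SEC53, PSA1, PMT1, PMT2 and MCD4 were called, 5 of 7, while 4.68% of all protein-coding genes were called with DTT. Since the 7 were chosen with earlier results known, their counts beside the shares of all genes are descriptions only. PSA1 was the 1 gene of the 7 called in vegetative cells, where 0.249% of all genes were called. At 6 h in BYTA PSA1, PMT2 and MCD4 were called, 3 of 7, beside 1.74% of all genes. After 21 h in BYTA 0 of 7 were called, beside 0.448% of all genes, and PSA1 was listed in replicate 1 alone. In sporulation medium 0 of 7 were listed in any of the 6 libraries, whose lists held 4 to 18 summits. The called share of all genes was 0.116% after 5.5 h, 0.216% after 6 h 45 min and 0.282% after 8 h in that medium. The share listed in at least 1 library was 0.482%, 0.448% and 0.515% in the same order. At shares this small, here and at 21 h in BYTA, a count of 0 of 7 allows no reading.

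Counts were also taken in single libraries. Vegetative replicates 1 and 2 each listed 1 of 7, beside 0.382% and 0.282% of all genes. DTT replicate 1 listed 6 of 7 and replicate 2 listed 5 of 7, beside 5.98% and 4.98% of all genes, and 6 of 7 were listed in at least 1 of them, beside 6.28%. The libraries of 6 h in BYTA differed in length: replicate 1 listed 4 of 7 and replicate 2 listed 3 of 7, beside 5.65% and 1.84% of all genes, with 4 of 7 in at least 1, beside 5.75%. Of the libraries of 21 h in BYTA, replicate 1 listed 1 of 7 and replicate 2 listed 0 of 7, beside 0.598% and 0.615% of all genes, so that 1 of 7 was in at least 1, beside 0.764%.

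**Figure D1:**
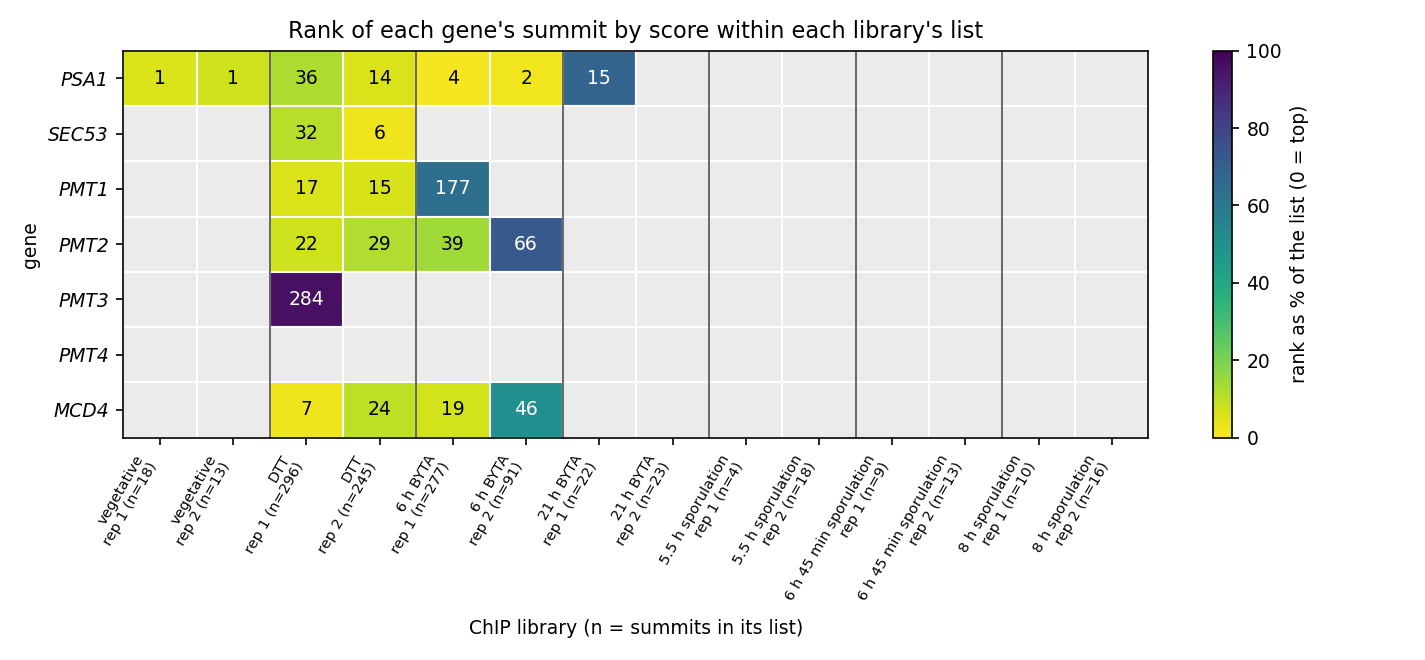
Columns are the 14 ChIP libraries, with the number of summits in each list, and rows are the 7 genes; a number is the rank of the gene's summit by score within that list, the colour is that rank as a percentage of the list, and grey marks a gene that was not listed. PSA1 fills 7 columns from vegetative growth to 21 h in BYTA, the other listed genes appear with DTT and in part at 6 h in BYTA, and the sporulation columns are grey throughout. The sporulation lists hold 4 to 18 summits, so their grey columns allow no reading.

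The 7 genes made 21 listings over the 14 libraries, and 18 of these were in the DTT and 6 h BYTA libraries. The remaining 3 belonged to PSA1. The DTT and 6 h BYTA lists were also the longest, so the number of listings followed the length of the lists as well as the state, and these cannot be told apart here.

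PSA1 (YDL055C, SK1_04G01790) has its window at positions 368819 to 369418 of chromosome IV in the SK1 coordinates of the tables, upstream of a gene on the minus strand. Its summit had the highest score of both vegetative lists, rank 1 of 18 in replicate 1 and rank 1 of 13 in replicate 2. The next summit, between KAR2 and TAD2, scored 1503 against 1615 for PSA1 in replicate 1 and 1119 against 1482 in replicate 2. KAR2 encodes the ER chaperone BiP.

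With DTT the PSA1 summit ranked 36 of 296 in replicate 1 and 14 of 245 in replicate 2. Its ranks after 6 h in BYTA were 4 of 277 and 2 of 91. Both replicates of each of these states placed it in the upper 12.2% of the list. In 21 h BYTA cells it had rank 15 of 22 in replicate 1, where its score of 542 lay below the list's median of 730. That list is much shorter than those with DTT and at 6 h in BYTA, so the ranks are not compared. Replicate 2 at 21 h did not list PSA1 although its list was about as long, with 23 summits. Among the 11 genes that replicate 1 ranked at or below PSA1, PSA1 included, replicate 2 listed 5, beside 27 of all 36 genes of replicate 1.

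SEC53 (YFL045C, SK1_06G00220, minus strand) has its window at positions 65335 to 65934 of chromosome VI. It ranked 32 of 296 in DTT replicate 1 and 6 of 245 in replicate 2, and no library outside DTT listed it. In replicate 2 it was the highest of the 7 genes, and in replicate 1 it stood between PMT2 and PSA1. A group of 29 genes lay within the upper 12.2% of both DTT lists, a limit taken from the lowest place of any of the 5 called genes. By this choice of limit the 29 include those 5 genes, SEC53 among them. Both 6 h BYTA libraries listed 21 of these 29, 1 library listed 6 and neither listed 2. SEC53 and AXL2, which encodes a membrane protein of axial bud site selection, were the 2 listed by neither. Of all 282 genes called with DTT, 37.6% were listed in neither 6 h BYTA library.

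PMT1 (YDL095W, SK1_04G01420, plus strand) has its window at positions 298556 to 299155 of chromosome IV. It ranked 17 of 296 and 15 of 245 with DTT. In 6 h BYTA cells it was listed in replicate 1, at rank 177 of 277, and not in replicate 2. Replicate 1 placed 130 genes at or below the rank of PMT1, and replicate 2 listed 2 of those 130. Nearly all genes placed that low in replicate 1 were thus not listed in replicate 2. Over all 340 genes of replicate 1, replicate 2 listed 105.

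PMT2 (YAL023C, SK1_01G00450, minus strand) has its window at positions 111718 to 112317 of chromosome I. Its DTT ranks were 22 of 296 and 29 of 245, close to those of PMT1. Its ranks at 6 h in BYTA were 39 of 277 in replicate 1 and 66 of 91 in replicate 2. Replicate 2 thus listed it in its lower part, at a score of 431 over a lowest listed score of 325. Of the 48 genes that replicate 1 ranked at or above PMT2, PMT2 included, replicate 2 listed 47. Over all 340 genes of replicate 1, replicate 2 listed 105.

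PMT3 and PMT4, which encode the other O-mannosyltransferases of the group, were called in no state. PMT3 (YOR321W, SK1_15G04310, plus strand, window 885912 to 886511 of chromosome XV) appeared once, in DTT replicate 1, at rank 284 of 296. Its score there was 350, just above the lowest listed score of 315. Of the 14 genes that this library placed at or below PMT3, DTT replicate 2 listed 4, and PMT3 was not among them. Over all 360 genes of DTT replicate 1, replicate 2 listed 282.

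MCD4 (YKL165C, SK1_11G00540, minus strand) has its window at positions 147442 to 148041 of chromosome XI. It was the highest of the 7 genes in DTT replicate 1, at rank 7 of 296, and ranked 24 of 245 in replicate 2. At 6 h in BYTA it ranked 19 of 277 in replicate 1 and 46 of 91 in replicate 2. Of the 24 genes that replicate 1 ranked at or above MCD4, MCD4 included, replicate 2 listed 23, beside 105 of all 340.

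**Figure D2:**
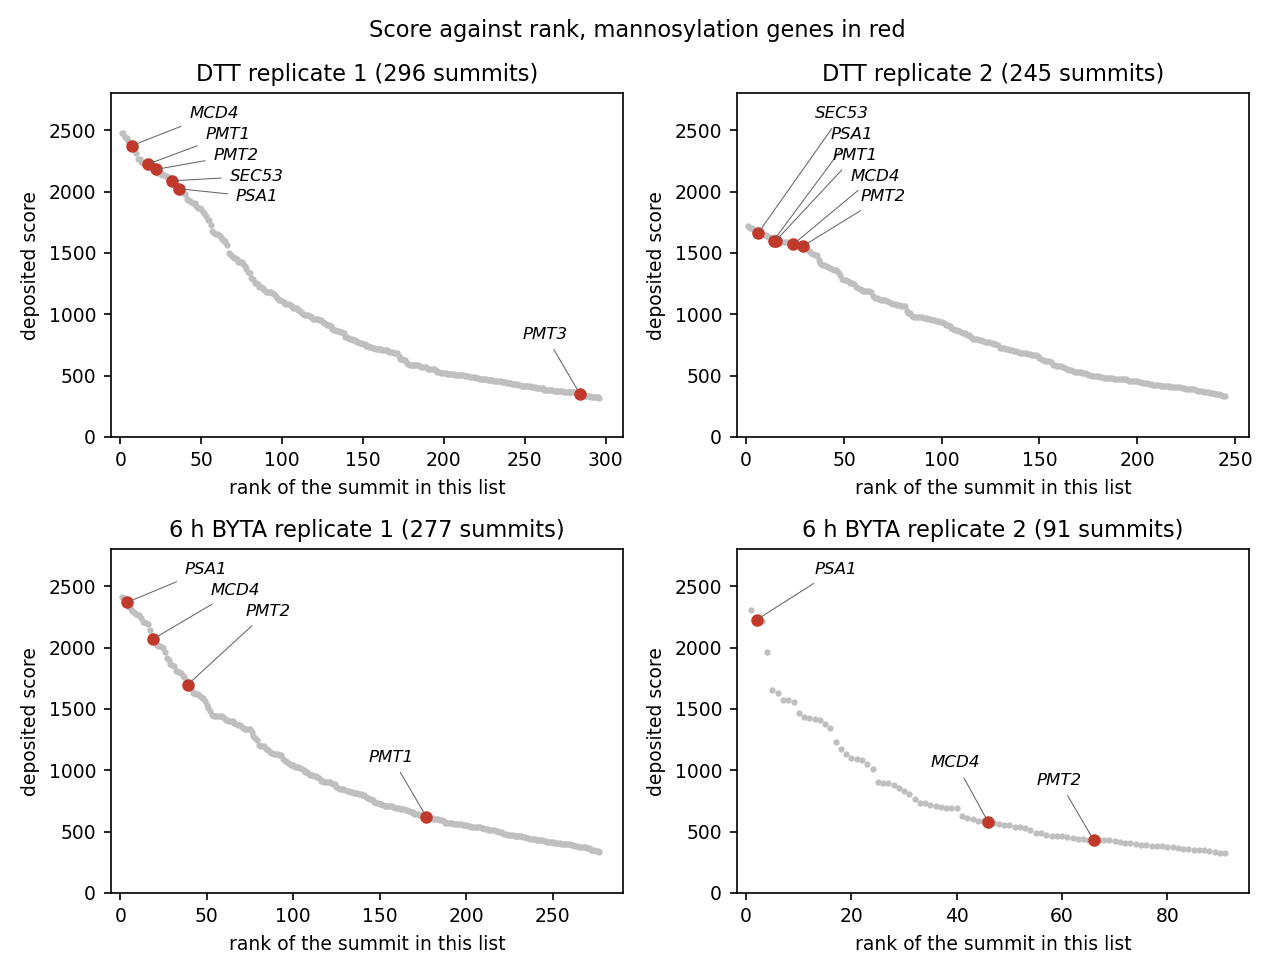
Each panel plots the deposited score against the rank of every summit in 1 list (grey points), with the listed mannosylation genes in red; scores are read within a panel only. With DTT the 5 called genes lie between ranks 6 and 36 of both lists and PMT3 lies near the end of replicate 1, while at 6 h in BYTA PSA1 lies at ranks 4 and 2, PMT1 at rank 177 of replicate 1, and MCD4 and PMT2 at ranks 46 and 66 of replicate 2.

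The median rank of the listed genes was 27 of 296 in DTT replicate 1, for 6 genes, and 15 of 245 in replicate 2, for 5 genes. As a percentage of the list these medians were 9.12% and 6.12%, beside 48.8% and 48.6% over all genes listed there. The choice of genes with earlier results known may bear on this difference, which was not tested. At 6 h in BYTA the median was 10.5% of the list in replicate 1, for 4 genes, and 50.5% in replicate 2, for 3 genes, beside 52.0% and 49.5% over all genes. The 6 h BYTA lists differ in length, and their medians cover different genes, so the percentages of the 2 replicates are not comparable.

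Summits of PSA1 lay far from the gene, and those of the other genes close to it. Over 7 libraries the PSA1 summit was 479 to 495 bp upstream of the gene start, a range of 16 bp. Its mean distance was 494 bp in vegetative cells, 484.5 bp with DTT and 493.5 bp at 6 h in BYTA, and the single value at 21 h was 485 bp. The DTT libraries gave 479 and 490 bp, and the DTT mean differed from the vegetative and 6 h BYTA means by less than the gap between these replicates. Among genes called with DTT 22.3% had a mean summit at least as far upstream as 479 bp, the nearest value of PSA1. The share was 26.7% of the genes called in vegetative cells and 35.2% of those called at 6 h in BYTA.

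The summits of SEC53 lay 150 and 160 bp upstream with DTT. PMT1 summits lay 133 and 132 bp upstream with DTT and 137 bp upstream at 6 h in BYTA. PMT2 had the most constant position, 208 bp in 1 library and 209 bp in the other 3. MCD4 summits lay 146 and 143 bp upstream with DTT and 150 and 161 bp at 6 h in BYTA. The PMT3 summit lay 103 bp upstream. The median over all 282 genes called with DTT was 355 bp, with quartiles of 252 and 469.5 bp, so the means of SEC53, PMT1, PMT2 and MCD4 all lay below the lower quartile. Between 130 and 210 bp, the span that holds these 4 means, lay 11.3% of the genes called with DTT.

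**Figure D3:**
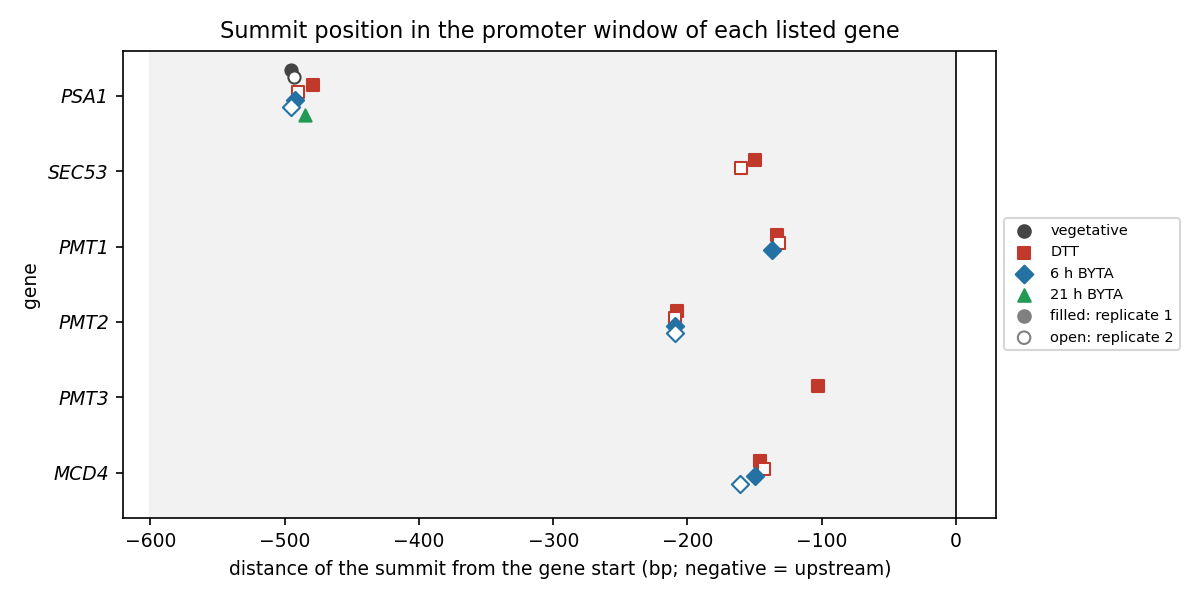
The horizontal axis is the distance of the summit from the gene start in bp, with the 600 bp promoter window shaded; symbols and colours give the state, filled symbols are replicate 1 and open symbols replicate 2, and PMT4 has no row because it was not listed. PSA1 summits cluster between 479 and 495 bp upstream in the 7 libraries that listed it, and those of the other 5 genes lie between 103 and 209 bp upstream.

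Replicate summits of the called genes were close. With DTT the 5 genes had a median gap of 3 bp between replicates and a largest gap of 11 bp, beside a median of 5.5 bp over all called genes. At 6 h in BYTA the median gap was 3 bp for 3 genes and 9 bp over all called genes. From DTT to 6 h in BYTA the mean position moved upstream by 9 bp at PSA1, 0.5 bp at PMT2 and 11 bp at MCD4, and the median size of this shift over the 77 genes called in both states was 15 bp. None of the 3 shifts exceeded the largest gap between replicates of the same genes.

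The summits of SEC53, PSA1, PMT2, PMT3 and MCD4 lay in the window of 1 gene each, as did 76.7% and 75.9% of all summits in the DTT lists. PMT1 was the exception. Its summits also lay in the window of RPN6 (YDL097C, SK1_04G01410), the divergent neighbour that encodes a subunit of the proteasome lid. They were 227 to 232 bp from the start of RPN6 and 132 to 137 bp from that of PMT1, so PMT1 was the nearer gene in all 3 libraries, and the tables do not tell which of the promoters the summit belongs to. In the R64 annotation, which is of another strain, the next gene upstream of PMT3 is the divergent GNT1, not listed in any library. The next annotated genes upstream of PSA1 and MCD4 are tRNA genes, whose distance in SK1 the tables do not give. A tRNA gene takes that place for 4.92% of all protein-coding genes for 9.93% of those called with DTT and for 2.86% of those called at 6 h in BYTA. The part of these neighbours in the listings was not tested.

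Besides these 7, other genes of the same pathways were examined. Lists of mannosylation, glycosylation and GPI genes held 100 genes, of which 93 were not among the 7. Of those 93, 6 were called with DTT, a share of 6.45% that is near the 4.68% of all genes. None of the 93 was called at 6 h in BYTA (0 called, beside 1.74% of all genes) or in any other state.

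Around GDP-mannose, DPM1 was called with DTT at rank 97 of 296 and 126 of 245, with summits 74 and 73 bp upstream. PMI40, which encodes the isomerase that makes mannose-6-phosphate for Sec53, was listed in DTT replicate 1 alone, at rank 220, with a summit shared with FMP52. VRG4, which encodes the Golgi GDP-mannose transporter, and GDA1, which encodes the GDPase that works with it, were not listed in any library. Of this list of 6 genes, 3 were called with DTT, beside 4.68% of all genes. They were DPM1 and, from the genes chosen with earlier results known, SEC53 and PSA1. PMT5, PMT6 and PMT7 were not listed either. That left 2 of 7 O-mannosyltransferase genes called with DTT and 1 of 7 at 6 h in BYTA, beside 4.68% and 1.74% of all genes. PMT1 and PMT2, also chosen with earlier results known, were the genes called. Lists this small allow no reading of these counts.

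Among 23 Golgi mannosyltransferase genes, HOC1, MNN1 and KTR1 were called with DTT, 3 of 23, beside 4.68% of all genes. The count was not tested against that share. HOC1, for a subunit of a mannan polymerase complex, ranked 79 of 296 and 89 of 245. MNN1, for the terminal alpha-mannosyltransferase, ranked 93 and 104 in the same lists and was also listed at 6 h in BYTA in replicate 1, at rank 260 of 277. KTR1 ranked 161 and 188, with a summit that also lay in the window of the nucleoporin gene NUP1. In both DTT lists these 3 genes stood below SEC53, PSA1, PMT1, PMT2 and MCD4.

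For N-glycosylation, ALG14 was the 1 of 14 genes of lipid-linked oligosaccharide assembly called with DTT, at ranks 167 and 140, and it shared its summit with YBR071W. Of 6 genes of dolichol phosphate synthesis 0 were called with DTT. Among them SEC59 and NUS1, for the dolichol kinase and a subunit of the enzyme that makes the dolichol chain, were listed in DTT replicate 1 alone. None of 9 oligosaccharyltransferase genes and none of 4 ER glycan trimming genes was listed in either DTT library. GFA1, for the enzyme that starts UDP-N-acetylglucosamine synthesis, was called at ranks 131 and 132, the 1 of 4 genes of that pathway. MCD4 was the 1 of 27 GPI genes called, both with DTT and after 6 h in BYTA, a share of 3.70% each time, beside 4.68% and 1.74% of all genes. The other lists of this paragraph, of 14, 6, 9, 4 and 4 genes, stand beside the same 4.68% with DTT, and their sizes allow no reading of a count of 0 or 1.

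**Figure D4:**
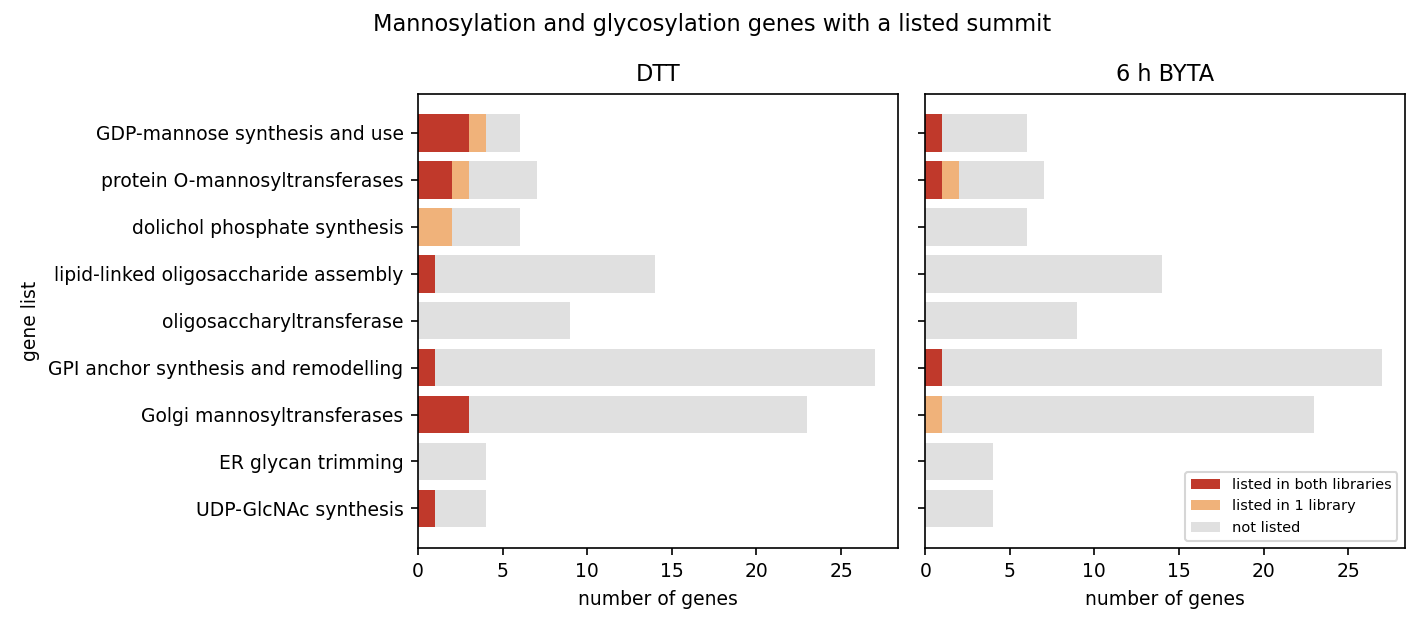
Bars give the number of genes of each list that were listed in both libraries (red), in 1 library (orange) or in neither (grey), with DTT on the left and at 6 h in BYTA on the right. The GDP-mannose list has 3 of 6 genes in red with DTT, SEC53 and PSA1 among them, beside 4.68% of all genes. With DTT the dolichol phosphate, oligosaccharyltransferase and ER trimming lists have 0 in red, and the dolichol phosphate list has 2 in orange.

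The listing pattern of PSA1 over the 14 libraries was compared with that of every listed gene by the Jaccard index, the share of libraries listing either gene that list both. GLK1 and PDI1, which share their summit and encode glucokinase and protein disulfide isomerase, came closest, at 0.875, with 7 libraries in common. Their ranks in these libraries differed from those of PSA1 by 25.8 percentage points on average. Another 6 genes tied at 0.714, and BDF2, YET3 and PBI2 were the 3 of them with the closest ranks. BDF2 and YET3 shared a summit in 21 h BYTA replicate 1 and had the same mean rank difference from PSA1. No gene had exactly the PSA1 pattern. PMT2 and MCD4 had one pattern, both DTT and both 6 h BYTA libraries and no other. It was shared by 64 genes besides PMT2, MCD4 among them. By closeness of ranks, FRE4, IRC15, CCW12, GLY1 and IES6 stood nearest to PMT2, and ERO1, IRC15, TSA1, CCW12 and TDA1 nearest to MCD4. GLY1 and IES6 had the same mean rank difference from PMT2, 7.76 percentage points. ERO1 encodes the ER thiol oxidase, and CCW12 encodes a mannoprotein of the cell wall. No shared function of the genes named here was tested.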

How the data were processed

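ChIP-seq tables of 14 libraries were analysed, and the 14 input libraries were not used here as tables. The submitters' processing notes name ChIPseeker 1.44.0 and MACS2 2.2.9.1, and also Bowtie2 2.3.4.1 with SAMtools 1.7, and give no roles. No source used here states the assembly, the control of each peak call or how summits were selected. Each deposited table gives a summit position, a score and a 600 bp promoter window with its gene, per the file headers. The type of the deposited score is not named. Peak names carry the library name, which tied each table to 1 library, and no peaks of replicates were pooled.

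Summits in several windows counted for each gene. Ranks over distinct summits, distances and counts were computed with Python 3.11.15. Ranks, distances and the Jaccard index were checked on made-up data in which no summit lay in several windows. The counts were not checked in this way. All 551 systematic names matched the RefSeq R64 gene table, and 10 identifiers without one were left out. All 101 pathway symbols matched R64, 2 of them the same gene (MNN6 is KTR6), which left 100 genes.

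The 7 genes and the pathway lists were chosen with earlier results of these data known. Named genes are the 7, every pathway gene listed in any library, genes sharing a summit with one of the 7, and the 5 nearest listing patterns for genes listed in at least 4 libraries. AXL2, KAR2, TAD2 and genes not listed were named with their values known. The alternatives tried were a call in either library, each replicate alone, scores of at least 500, 1 floor for all tables, nearest gene only and ranks over all rows. A planned motif search was not run, since no promoter sequences were used here.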

Additional observations from a re-analysis of the deposited data

How the results depend on the processing

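The numbers of the 7 genes called were 1 in vegetative cells, 5 with DTT and 3 at 6 h in BYTA. They stayed within 1.5 times under every alternative run: calling in either library, each replicate alone, scores of at least 500, a floor of 401 for all tables, and nearest gene only. Both score cutoffs treat the scores of different lists as comparable, which the labels do not state. Calling in either library gave 6 with DTT and 4 at 6 h in BYTA, where scores of at least 500 gave 2, PSA1 and MCD4. At 21 h in BYTA the count was 0, it was 1 (PSA1) when either library sufficed, and it ran from 0 to 1 over the replicates taken alone. For the other pathway genes at 6 h in BYTA the count was 0, it was 1 (MNN1) when either library sufficed, and it ran from 0 to 1 over the replicates alone. Ranking over all rows moved 21 ranks by at most 4.04 percentage points. No gene of the 7 had several summits in a library, so taking the nearest summit left all 9 mean distances as they were. No paired analysis was possible because the counts come from no test. Read depth is unknown, so a gene that was not listed may lie just under a list's floor.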
